A study of Vitis vinifera with 204 samples.

Results

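The last weeks before veraison of the 2014 season were compared in grape berries by setting the 6 RNA-seq libraries of day 0 after veraison against the 6 of day -14. These 12 libraries, out of 72 of that season and a further 72 of 2012 and 60 of 2013, were chosen by season and time point alone. Each day holds 3 libraries from vines thinned by 75% and 3 from vines thinned by 50%. All berries were pericarp of Cabernet Sauvignon (Vitis vinifera). The vines, of clone FPS 8 on rootstock 5C, grew in 1 vineyard near Modesto, California. Thinning took clusters away after fruit set: at 75%, the severe treatment, a cluster was left on every other shoot, and at 50%, the moderate treatment, on each shoot. Every vine in these comparisons had therefore been thinned, and unthinned vines were not analysed here. Each library came from a pool of berries picked from a block of vines, with seeds taken out during grinding. The p-values below measure the spread between such pools.

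Veraison is the onset of ripening in grapes: the hard, acidic green berry softens, starts to import sugar quickly and, in red cultivars, builds up anthocyanin pigments in the skin. Before it, growth pauses in the lag phase, when cell division in the pericarp has ended. Berries of a cluster do not pass veraison on the same day, so a pool picked near it can hold berries at different stages, and an RNA level of a pool is an average over them. In such bulk samples, fewer cells or berries with a transcript and less transcript per cell cannot be told apart.

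Sugar, taken from the labels, separated both days completely. On day 0 it was 3.67, 2.65 and 4.65 g per 100 ml in the 75% arm and 2.8, 1.2 and 3.28 g per 100 ml in the 50% arm, against 0.47 to 0.56 g per 100 ml in the 6 samples of day -14. The mean was 3.04 ± 1.15 g per 100 ml on day 0 and 0.512 ± 0.0325 g per 100 ml on day -14 (SD, n = 6 each; two-sided exact permutation test, p = 0.00216, the smallest that 6 against 6 can give). The day 0 pools differed widely among themselves, and the lowest of them held little more sugar than the highest pool of day -7, at 0.98 g per 100 ml. By day 8 all 6 pools lay between 10.21 and 12.53 g per 100 ml.

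Levels are RPKM, reads scaled by the length of the gene and by the mapped reads of the library. The deposited tables list 29971 gene IDs, none of which is paired with a gene name in the sources used here, so no gene functions can be given and the pericarp label could not be checked against markers of seed or other tissues. Groups of genes are instead defined by how they behaved in 2012 and 2013. The sum of RPKM was 905137 to 989188 in the day 0 libraries and 833956 to 864643 in those of day -14, and sequencing depth is unknown. Genes with at least 1 RPKM numbered 16713 ± 372 on day 0 and 17220 ± 169 on day -14 (SD, n = 6 each; two-sided exact permutation test, p = 0.013). No pair of the 18 libraries of days -14, -7 and 0 held identical values.

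Over the 14 days to veraison 665 genes rose and 1597 fell at least 2-fold (limma on log2(RPKM + 1), adjusted p below 0.05), which is 3.2% and 7.69% of the 20770 genes tested. At least 4-fold, 232 rose (1.12%) and 281 fell (1.35%). Risen genes had a median log2 change of 1.61 and fallen genes of -1.40, and the median of all genes tested was -0.08. Risen genes made up 17.9% of the summed RPKM on day 0 and 3.89% on day -14, with 10.7 to 25.1% in single day 0 libraries and 3.72 to 4.13% in those of day -14. Fallen genes made up 4.13% on day 0 and 14.7% on day -14. The 6 and 6 libraries did not overlap in 568 of the risen and 1432 of the fallen genes; over all genes tested 2530 (12.2%) were higher and 4170 (20.1%) lower without overlap.

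Among genes that reached 5 RPKM and whose days did not overlap, the largest rise was that of VIT_06s0061g00550. Its level was 4785, 4410 and 5989 RPKM in the 75% arm and 3660, 2205 and 3422 RPKM in the 50% arm on day 0, against 1.98 to 11.2 RPKM on day -14. All 6 pools of day 0 were far above every pool of day -14, a difference of 9.38 on the log2 scale (SE 0.37, limma adjusted p = 2.26e-07). VIT_13s0067g02930 followed, with 2354, 2077 and 2413 RPKM in the 75% arm and 2008, 992 and 1487 RPKM in the 50% arm on day 0, against 1.2 to 5.42 RPKM on day -14. Its log2 change was 8.79 (SE 0.31, limma adjusted p = 1.35e-07). In both genes replicate 2 of the 50% arm, the pool with the least sugar, was the lowest of day 0.

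By the same rule the largest falls were those of VIT_02s0154g00320 and VIT_01s0026g00350. VIT_02s0154g00320 had 6.66, 12.5 and 6.79 RPKM in the 75% arm and 6.54, 35.3 and 6.85 RPKM in the 50% arm on day 0, against 330 to 593 RPKM on day -14 (log2 change -5.34, SE 0.39, limma adjusted p = 4.67e-06). The same pool, replicate 2 of the 50% arm, had kept the most of this transcript. VIT_01s0026g00350 had 0.755 to 5.94 RPKM on day 0 and 65.9 to 159.6 RPKM on day -14 (log2 change -5.04, SE 0.35, limma adjusted p = 3.78e-06). Its highest day 0 value was again in replicate 2 of the 50% arm. Leaving out any single library ended none of these 4 calls.

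**Figure D1:**
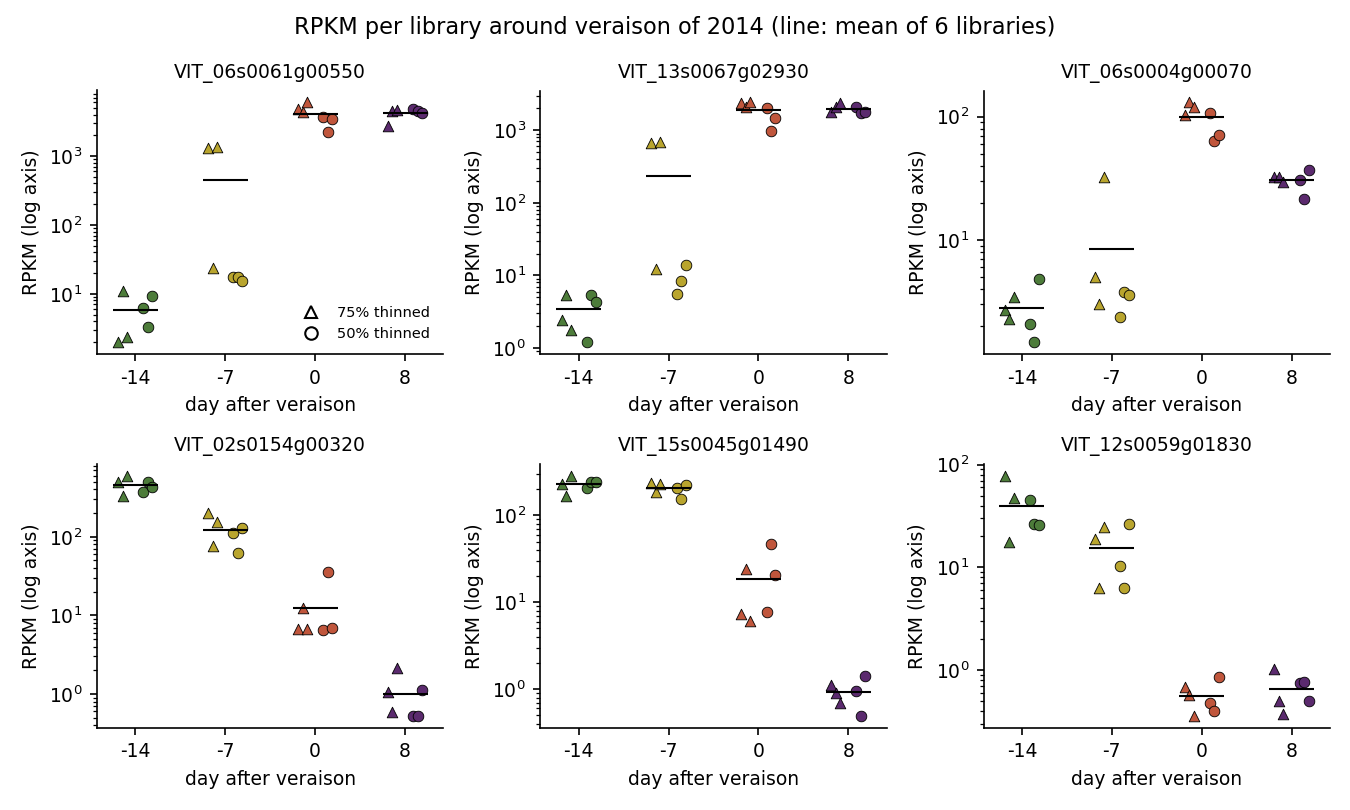
RPKM on a log axis in each library of days -14, -7, 0 and 8 of 2014 for 6 genes named in the text; triangles are the 75% arm, circles the 50% arm and lines the mean of 6 libraries. In VIT_06s0061g00550 and VIT_13s0067g02930 the 75% arm has 2 libraries on day -7 far above the other 4, and in VIT_15s0045g01490 the day -7 values overlap those of day -14.

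Few genes crossed between very low and clear expression: 9 had under 1 RPKM in every library of day -14 and at least 5 RPKM in every library of day 0, and 3 went the other way. All 9 belonged to the genes that also rose at the onset of ripening in 2012 and 2013, as did 71.9% of all risen genes. All 3 belonged to those that fell there, as did 82.9% of all fallen genes. Of the 20770 genes tested, 1152 rose and 4096 fell at that onset. Genes with a called neighbour in ID order were frequent: 129 of the 665 risen genes (19.4%) had an adjacent ID that also rose, against 4.79% of all genes tested, and 339 of the 1597 fallen genes (21.2%) an adjacent ID that also fell, against 11%. Runs of at least 3 adjacent risen IDs numbered 6 and those of fallen IDs 20, and the longest held 5 genes. Neighbours of near-identical sequence can share reads, so their values may not be independent.

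The 14 days were then divided at day -7. Between day -14 and day -7, 132 genes rose (0.636%) and 59 fell (0.284%). Between day -7 and day 0, 350 rose (1.69%) and 975 fell (4.69%). Both steps use the day -7 libraries, so they are given side by side only. In the earlier step VIT_05s0049g00760 rose over both arms together. It had 6433, 116 and 3003 RPKM in the 75% arm and 118, 80.7 and 168 RPKM in the 50% arm on day -7, against 14 to 36.5 RPKM on day -14 (log2 change 4.12, SE 0.85, limma adjusted p = 0.0172). In either arm alone it missed the threshold (limma adjusted p = 0.141 in the 75% arm and 0.125 in the 50% arm). VIT_02s0154g00320 fell already in this step, to 62.8 to 203 RPKM on day -7 against the 330 to 593 RPKM of day -14 (log2 change -1.96, SE 0.27, limma adjusted p = 0.00382). That call was lost in 2 of 26 alternatives, with limma adjusted p up to 0.131. VIT_08s0007g03240 had 3.81 to 9.77 RPKM on day -14, 0.639 to 1.51 RPKM on day -7 and 0.488 to 1.44 RPKM on day 0. Its log2 change was -1.87 (SE 0.22, limma adjusted p = 0.00223) from day -14 to day -7 and -0.13 (SE 0.13, limma adjusted p = 0.433) from day -7 to day 0. The earlier call was lost in 3 of 26 alternatives, with a log2 change as small as -0.92 and limma adjusted p up to 0.149.

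VIT_15s0045g01490 fell in the later step. It had 167 to 284 RPKM on day -14 and 155 to 236 RPKM on day -7, which overlap, and on day 0 it had 7.41, 24.2 and 6.10 RPKM in the 75% arm and 7.64, 46.6 and 20.5 RPKM in the 50% arm. Its log2 change was -3.74 (SE 0.43, limma adjusted p = 0.000219) from day -7 to day 0 and -0.14 (SE 0.14, limma adjusted p = 0.551) from day -14 to day -7. VIT_01s0026g00350, named above, had 24.1 to 58.6 RPKM on day -7, and it changed by -3.67 on the log2 scale in the later step (SE 0.36, limma adjusted p = 0.000107). The number of genes in the earlier step was unsteady. Without replicate 1, 2 or 3 of the 50% arm on day -14 it was 209, 55 and 56 risen genes, without replicate 1 or 3 of the 75% arm on day -14 it was 55 and 57, without replicate 1 or 2 of the 50% arm on day -7 it was 61 and 65, and without replicate 2 of the 75% arm on day -7 it was 226. The fallen genes were 35 without replicate 2 of the 50% arm on day -7.

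**Figure D2:**
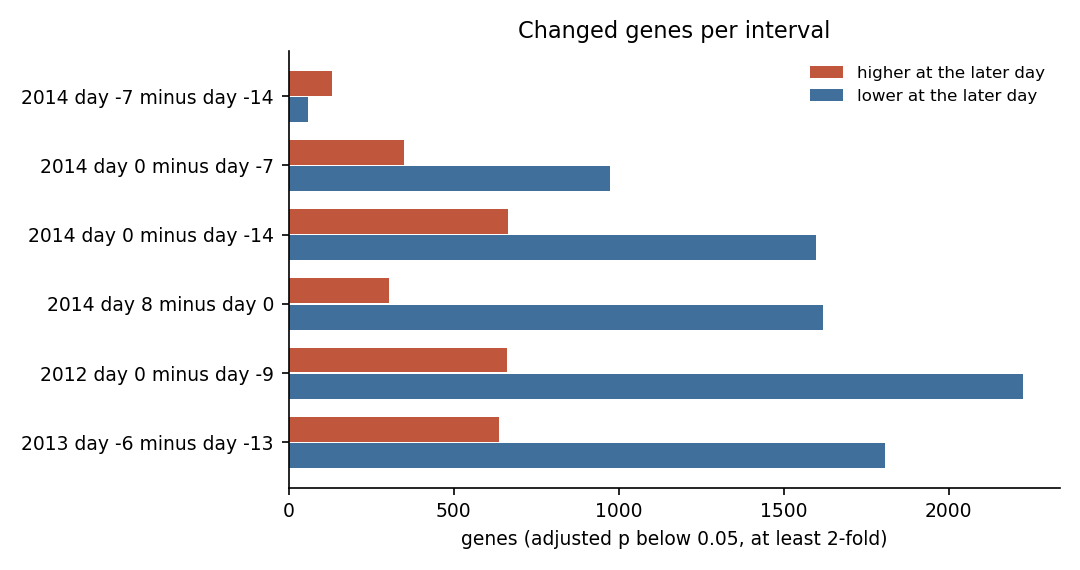
Number of genes higher (red) and lower (blue) at the later day of each interval, by limma on log2(RPKM + 1) with adjusted p below 0.05 and at least 2-fold. The step from day -7 to day 0 has 350 higher and 975 lower genes, and that from day -14 to day -7 has 132 and 59; intervals differ in length.

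The pools of day -7 differed widely in how far ripening genes had changed. A ripening score was made from the 200 genes with the largest rise and the 200 with the largest fall from green berries to early ripening in 2012 and 2013, as the mean log2(RPKM + 1) of the ripening-up genes minus that of the ripening-down genes. It was 1.00 ± 1.18 on day 0 and -3.75 ± 0.18 on day -14 (SD, n = 6 each; two-sided exact permutation test, p = 0.00216). On day -7 replicates 1 and 3 of the 75% arm scored 0.20 and -0.76, while the other 4 libraries scored -3.16 to -2.70. Sugar was 0.75 and 0.98 g per 100 ml in the pair and 0.56 to 0.68 g per 100 ml in the others. The pair is named from its values, after seeing them, and is no group of the study.

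The pair stood apart in the ripening-up genes, and by less in the ripening-down genes. The ripening-up level was 5.74 and 4.90 on the log2 scale in replicates 1 and 3 of the 75% arm, against 2.72 to 3.04 in the other libraries of day -7. The ripening-down level was 5.55 and 5.66, against 5.74 to 5.95 in the others. Put as the way from day -14 to day 8, as a median over genes on the RPKM scale, the pair had covered 50.8% and 26.2% of it in the ripening-up genes, while the other 4 libraries had covered 0.489 to 1.35%. In the ripening-down genes it had covered 36.8% and 30.3%, and the others 14.5 to 27.3%. On the log2 scale the pair had covered 81.0% and 58.9% in the ripening-up and 15.2% and 12.6% in the ripening-down genes, and the others 5.26 to 11.8% and 4.24 to 9.56%. VIT_06s0061g00550 shows the pattern: it had 1317 and 1333 RPKM in replicates 1 and 3 of the 75% arm on day -7, against 15.5 to 24.0 RPKM in the other 4 libraries of that day. Over both arms it changed by 3.77 (SE 0.95, limma adjusted p = 0.0341) from day -14 to day -7 and by 5.62 (SE 0.89, limma adjusted p = 0.00105) from day -7 to day 0 on the log2 scale, and the later step missed the threshold in the 75% arm alone (adjusted p = 0.164). VIT_13s0067g02930 had 662 and 689 RPKM in the pair, against 5.49 to 14.0 RPKM in the others. The 1804 genes that rise late in ripening in 2012 and are in no onset list (both lists are described below) had a mean level of 2.68 and 2.62 on the log2 scale in the pair, against 2.66 to 2.77 in the other 4 libraries. Without both libraries 133 genes rose and 44 fell from day -14 to day -7, and 525 rose and 1190 fell from day -7 to day 0.

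**Figure D3:**
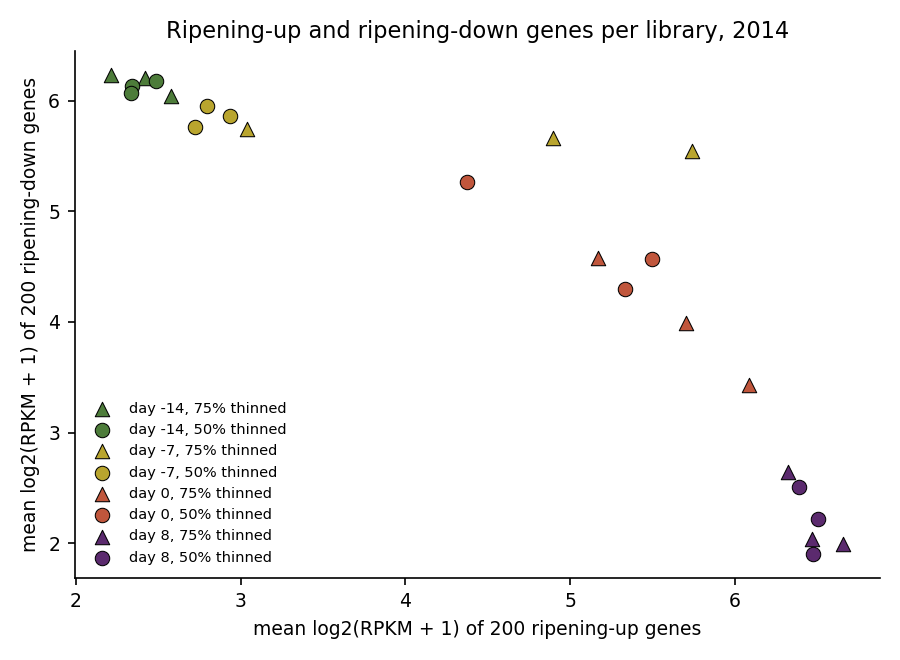
Mean log2(RPKM + 1) of the 200 ripening-up genes (x axis) and of the 200 ripening-down genes (y axis), a point per library of 2014, coloured by day, with triangles for the 75% arm and circles for the 50% arm. Replicates 1 and 3 of the 75% arm on day -7 lie at 5.74 and 4.90 on the x axis, among the day 0 libraries, and at 5.55 and 5.66 on the y axis, above all of them.

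On day 0 the pools differed in how far they had come. The median ripening-up gene had covered 55.1%, 33.5% and 65.4% of the way to day 8 in the 75% arm and 38.5%, 14.3% and 39.5% in the 50% arm. The median ripening-down gene had covered 84.2%, 71.2% and 91.5% in the 75% arm and 76.6%, 51.5% and 71.7% in the 50% arm. Which gene set was nearer to its day 8 level turned with the scale. With levels on the log2(RPKM + 1) scale the median ripening-up gene had covered 83.5%, 67.0% and 88.0% in the 75% arm and 72.5%, 45.0% and 74.0% in the 50% arm, and the median ripening-down gene 53.8%, 38.4% and 69.0% in the 75% arm and 45.0%, 22.2% and 37.4% in the 50% arm. The score of the day 0 libraries followed their sugar, with Pearson's r = 0.987 (exact permutation p = 0.00417) and Spearman's rho = 0.943 (exact permutation p = 0.0167, n = 6). Without the pools of 1.2 and 4.65 g per 100 ml, r was 0.862 over 4 pools. This was the only relation of its kind computed. The spread between pools changed as well: in the onset genes defined below that rise, the median SD between libraries was 0.18 on day -14, 0.37 on day -7, 0.28 on day 0 and 0.20 on day 8 on the log2 scale, and in those that fall it was 0.17, 0.17, 0.26 and 0.23, while over all genes tested it was 0.13, 0.14, 0.17 and 0.18 on the same days.

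Whether berries of the more heavily thinned vines were further on was examined with the score. The 75% arm minus the 50% arm was 1.95 on day -7 (two-sided exact permutation p = 0.1) and 1.30 on day 0 (p = 0.3 by the same exact test), and 3 against 3 cannot go below 0.1. On day -14 the difference was -0.02 (exact permutation p = 1.0). Sugar on day 0 was 3.66 ± 1.00 g per 100 ml in the 75% arm and 2.43 ± 1.09 g per 100 ml in the 50% arm (SD, n = 3 each; exact permutation p = 0.3).

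Tested within each arm, 718 genes rose (3.46%) and 2023 fell (9.74%) to day 0 in the 75% arm, and 535 rose (2.58%) and 1064 fell (5.12%) in the 50% arm. Called in both were 450 risen and 990 fallen genes. Of the 665 genes called risen over both arms, 660 had a positive change in the 75% arm and all 665 in the 50% arm. A test of the difference itself, the change of the 75% arm minus that of the 50% arm, called 8 genes by limma at adjusted p below 0.05, of which 1 was higher (0.00481%) and 7 lower (0.0337%) in the 75% arm, while 2181 genes had an unadjusted p below 0.05.

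Both genes with the largest such difference that also met the other conditions of the naming rule had fallen further in the 75% arm. VIT_05s0051g00680 had 4.78, 3.31 and 2.92 RPKM in the 75% arm and 30.5, 30.3 and 20.0 RPKM in the 50% arm on day 0, and 19.1 to 33.7 RPKM over both arms on day -14 (difference of log2 changes -2.65, SE 0.33, limma adjusted p = 0.0467). VIT_02s0025g02600 had 2.11, 2.26 and 2.81 RPKM in the 75% arm and 19.2, 12.9 and 15.6 RPKM in the 50% arm on day 0, and 13.9 to 21.5 RPKM over both arms on day -14 (difference -2.19, SE 0.24, limma adjusted p = 0.0287). On day 8 the 6 libraries lay at 1.19 to 2.80 RPKM for VIT_05s0051g00680 and 1.19 to 2.39 RPKM for VIT_02s0025g02600. The day 0 pools of the 75% arm held more sugar on average. Replicate 2 of that arm, however, held 2.65 g per 100 ml, less than replicates 1 and 3 of the 50% arm with 2.8 and 3.28 g per 100 ml. Its ripening score was 0.59, against 1.04 and 0.93 in those pools. The parts of stage and thinning were not tested. The count of 8 was unsteady. It was 2 with a replicate block and 443 with the spread estimated over all libraries of the series, and single libraries also decide it: it was 3 and 2 without replicate 1 or 3 of the 75% arm on day 0, 1 and 59 without replicate 1 or 2 of the 50% arm on day 0, 2 and 1 without replicate 1 or 3 of the 75% arm on day -14, and 18 without replicate 1 of the 50% arm on day -14. The adjusted p of VIT_05s0051g00680 ranged up to 0.287 and that of VIT_02s0025g02600 up to 0.131 over the alternatives tried.

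The change to day 0 was then read against lists of genes from the other seasons, whose libraries are not among the 12. The onset lists hold the genes at least 2-fold higher (1152) or lower (4096) in early ripening, days 8 to 22 after veraison, than in green berries of 2012 and 2013. Of the 1152 onset genes that rise, 478 rose by day 0 of 2014 (41.5%, against 3.2% of all genes tested) and 10 fell. Of the 4096 that fall, 1324 fell (32.3%, against 7.69%) and 5 rose. The median log2 change was 0.84 and -0.71 in these lists and -0.08 over all genes tested. Genes of the onset lists made up 71.9% of all risen and 82.9% of all fallen genes in the same direction. The lists themselves hold 1152 and 4096 of the 20770 genes tested. From day 0 to day 8, a comparison that shares the day 0 libraries, 303 genes rose (1.46%) and 1618 fell (7.79%); of the onset genes that rise 228 rose in it, and of those that fall 1458 fell.

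By count, the most genes were shared with intervals of the other seasons that lead into or up to veraison, which also had the longest lists. The shorter list of day -18 to day -9 of 2012 shared 60.1% of its risen and 59.4% of its fallen genes. From day -9 to day 0 of 2012, 661 genes rose (3.18%) and 2225 fell (10.7%). Called risen in both were 390 genes, 58.6% of the 2014 and 59% of the 2012 list, and called fallen 900, 56.4% of the 2014 and 40.4% of the 2012 list. From day -13 to day -6 of 2013, 637 rose (3.07%) and 1807 fell (8.7%). With it 415 risen genes were shared, 62.4% of the 2014 and 65.1% of the 2013 list, and 885 fallen genes, 55.4% and 49%. Sugar reached 1.6 to 3.03 g per 100 ml on day -6 of 2013, within the 1.2 to 4.65 g per 100 ml of day 0 of 2014, and 6.43 to 10.33 g per 100 ml on day 0 of 2012.

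Earlier green intervals and late ripening were compared in the same way. From day -28 to day -18 of 2012, 398 genes rose (1.92%) and 659 fell (3.17%). Of the 398 genes, 82 rose (20.6%, against 3.2% of all genes tested) and 46 fell (11.6%, against 7.69%) in the 2014 interval, and of the 659 genes, 256 fell (38.8%) and 32 rose (4.86%). From day -18 to day -9 of 2012, 303 rose (1.46%) and 471 fell (2.27%). Of the 303 genes, 182 rose (60.1%) and 3 fell (0.99%) in the 2014 interval, and of the 471 genes, 280 fell (59.4%) and 2 rose (0.425%). The genes that rise only late in ripening in 2012, 1804 outside the onset lists, had 17 risen (0.942%) and 55 fallen (3.05%) members. Of all 15522 genes in no onset list, from which these were taken, 1.17% rose and 1.69% fell.

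Of the 15522 genes in no onset list 182 rose (1.17%) and 263 fell (1.69%), and their course over the season is given beside that of all called genes. The 182 risen genes outside the onset lists had a median level of 2.60 on day -14, 3.95 on day 0, 3.57 on day 8 and 2.56 on day 63 on the log2(RPKM + 1) scale. All 665 risen genes had 2.68 on day -14, 4.80 on day 0, 5.30 on day 8 and 4.72 on day 63. Of these 182, 73 had their highest mean of the 12 time points on day 0, and of all 665, which include them, it was 107. Fallen genes outside the onset lists had a median of 2.67 on day 0, 2.78 on day 8 and 2.50 on day 63, while all 1597 fallen genes had 2.67 on day 0, 1.70 on day 8 and 1.01 on day 63. Membership of an onset list was set by the level after veraison, so the difference between these courses is a description. The genes were also called on the day 0 libraries themselves, which favours an extreme on day 0. The share of all genes tested with their highest mean on that day is not given here.

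**Figure D4:**
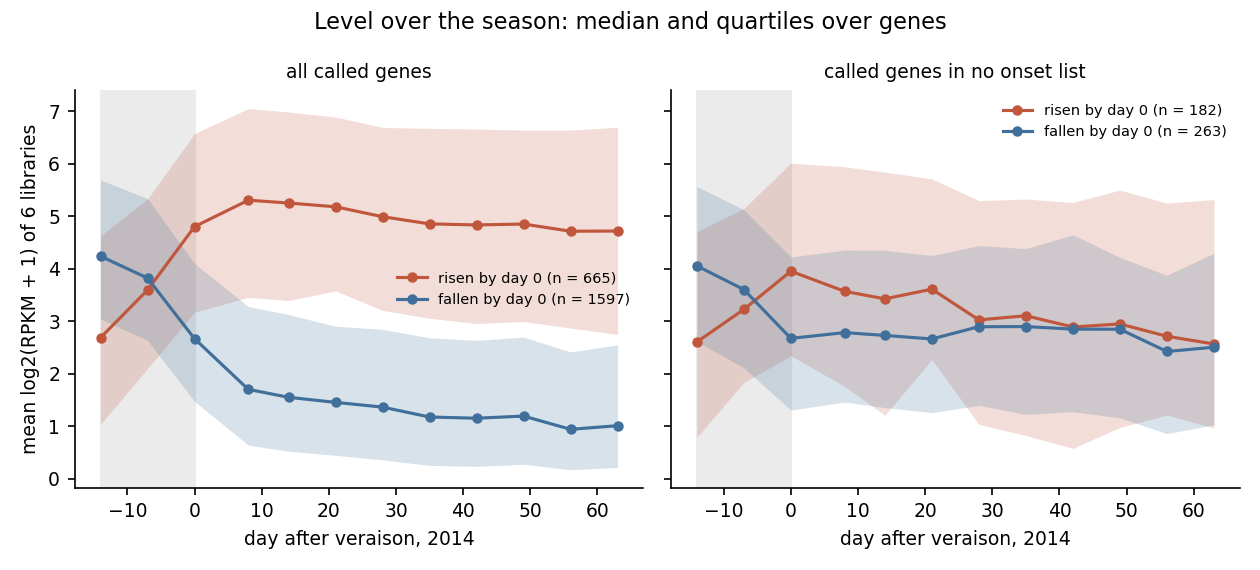
Median (line) and quartiles (shading) over genes of the mean log2(RPKM + 1) of 6 libraries at each of the 12 time points of 2014, for genes that rose (red) or fell (blue) by day 0; all of them on the left, those in no onset list on the right. The grey band marks days -14 to 0; on the right the risen genes stand at 3.95 on day 0 and 2.56 on day 63.

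VIT_06s0004g00070, chosen after seeing its values, was high on day 0 and lower again later. It had 103.6, 130.3 and 119.0 RPKM in the 75% arm and 107.5, 63.3 and 71.6 RPKM in the 50% arm on day 0, against 1.48 to 4.85 RPKM on day -14 (log2 change 4.73, SE 0.22, limma adjusted p = 4.44e-07). On day 8 it had 21.4 to 36.7 RPKM, and on day 63 a mean of 0.301 ± 0.471 RPKM (SD, n = 6). VIT_05s0049g00520 was the other largest rise outside the onset lists, with 30547, 15116 and 32735 RPKM in the 75% arm and 22704, 9100 and 17225 RPKM in the 50% arm on day 0, against 40.0 to 101.3 RPKM on day -14 (log2 change 8.06, SE 0.35, limma adjusted p = 3.46e-07). It is in no onset list, and it is listed at 0 in 16 of the 30 libraries of days 8 to 22 of 2012 and 2013, while the other 14 hold 31354 to 52968 RPKM. It is listed at 0 in none of the 12 libraries compared here. Among the risen genes 14, and among the fallen 3, are listed at 0 in a library of the 12 while another holds at least 50 RPKM.

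The largest falls outside the onset lists, also chosen after seeing their values, were those of VIT_19s0014g03090 and VIT_11s0016g00660. VIT_19s0014g03090 had 0.371, 0.841 and 0.593 RPKM in the 75% arm and 1.70, 2.62 and 2.85 RPKM in the 50% arm on day 0, against 15.7 to 25.6 RPKM on day -14 (log2 change -3.32, SE 0.14, limma adjusted p = 3.23e-07). On day 8 it had 1.48 to 2.92 RPKM. VIT_11s0016g00660 had 3.51 to 7.42 RPKM on day 0 and 24.9 to 110.0 RPKM on day -14 (log2 change -3.24, SE 0.36, limma adjusted p = 5.47e-05). On day 8 it had 0.775 to 5.50 RPKM. In both genes the range of day 8 overlaps that of day 0.

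The change of the 2014 interval was tested against that of day -9 to day 0 of 2012, which shares no library with it. In 2014 the change was higher in 884 genes (4.26%) and lower in 565 (2.72%), at adjusted p below 0.05 and at least 2-fold by limma. Both sets were chosen on this difference, so unlike medians in the 2 seasons follow from the choice. Over the 884 genes the median log2 change was -0.0039 in 2014 and -1.33 in 2012. Called fallen in 2012 were 560 of them, against 10.7% of all genes tested. Onset genes that fall were 499 of them and onset genes that rise 92, against 4096 and 1152 of the 20770 genes tested. Over the 565 genes the median was -1.21 in 2014 and 0.19 in 2012. Called fallen in 2014 were 340 of them, against 7.69% of all genes tested. Onset genes that fall were 233 of them and onset genes that rise 86, against the same 4096 and 1152 of 20770. The starting points differed: sugar was 0.47 to 0.56 g per 100 ml on day -14 of 2014 and 0.75 to 1.78 g per 100 ml on day -9 of 2012. Season, length of interval and stage at its start cannot be told apart.

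VIT_06s0061g00550 differed in its starting level. On day -9 of 2012 it already had 41.6 to 1835 RPKM, and on day 0 of that season 3690 to 5877 RPKM, and its log2 change was larger by 5.57 in 2014 (SE 1.102, limma adjusted p = 0.000705). VIT_13s0067g02930 had 87.6 to 857 RPKM on day -9 of 2012, and its log2 change was larger by 5.95 in 2014. VIT_12s0059g01830 had 0.358 to 0.860 RPKM on day 0 and 17.6 to 77.5 RPKM on day -14 of 2014, while in 2012 it was below 1 RPKM on both days (difference of log2 changes -4.46, SE 0.36, limma adjusted p = 9.94e-08). VIT_09s0002g03140 had 0.487 to 3.72 RPKM on day 0 and 20.2 to 41.2 RPKM on day -14 of 2014. In 2012 it had 2.78 to 5.72 RPKM on day 0 and 0.194 to 5.34 RPKM on day -9 (difference of log2 changes -4.40, SE 0.38, limma adjusted p = 1.81e-07). The libraries of the 2 seasons also differ in how low values are listed: the 12 of 2014 hold 1 to 20 values each above 0 and under 0.01 RPKM, and the 12 of 2012 hold 151 to 244. Its part in the difference was not tested.

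Within the 18 libraries of days -14 to 0, a group of 65 genes varied together. The group was found after seeing the values, as the genes whose level had a correlation of at least 0.9 over these libraries with VIT_19s0177g00090, a leading gene of the second principal component (16.6% of the variance, after 52.3% in the first). On day -14 the 65 genes made up 0.0231%, 0.535% and 0.0181% of the summed RPKM in the 75% arm and 1.49%, 0.0134% and 0.0254% in the 50% arm. On day -7 they made up 0.413 to 6.28% in all 6 libraries. On day 0 they made up 0.00700%, 0.00415% and 0.0443% in the 75% arm and 2.39%, 1.11% and 2.56% in the 50% arm, and on day 8 at most 0.0635% in any library. The day 0 libraries of the arms thus lie apart, while those of day -14 are mixed. The 65 genes were chosen to follow 1 gene over these same libraries, so this describes that gene's pattern and not 65 separate observations. For the share in the 75% against the 50% arm, the two-sided exact permutation p was 0.1 on day 0. It was 0.8 on day -14 and on day -7, and 3 against 3 cannot go below 0.1. In 2013 the group reached at most 1.26% in a library and in 2012 at most 0.185%.

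VIT_19s0177g00090 itself had 10.3, 2.16 and 47.3 RPKM in the 75% arm and 6201, 3790 and 4831 RPKM in the 50% arm on day 0. On day -14 it had 68.2, 1806 and 53.4 RPKM in the 75% arm and 4505, 29.5 and 80.0 RPKM in the 50% arm. Another member, VIT_12s0028g01180, gave the largest rise of the step from day -14 to day -7: it had 795, 5603 and 519 RPKM in the 75% arm and 3578, 2145 and 527 RPKM in the 50% arm on day -7, against 4.92, 415 and 6.61 RPKM in the 75% arm and 476, 3.90 and 10.8 RPKM in the 50% arm on day -14 (log2 change 5.68, SE 1.45, limma adjusted p = 0.0357). That call was lost in 12 of 25 alternatives, with adjusted p up to 0.295. Of the 65 genes 1 rose and 0 fell from day -14 to day 0, against 3.2% and 7.69% of all genes tested. From day -14 to day -7, 11 of them rose, against 0.636% of all genes tested, and from day -7 to day 0, 41 fell, against 4.69%, in the libraries they were chosen on. Of the 65, 0 were among the 8 genes that differed between the arms. The share of the 65 genes lies apart between the arms on day 0, in libraries they were chosen on. Its part in the arm difference was not tested. Without these genes the counts to day 0 were 665 risen and 1598 fallen.

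**Figure D5:**
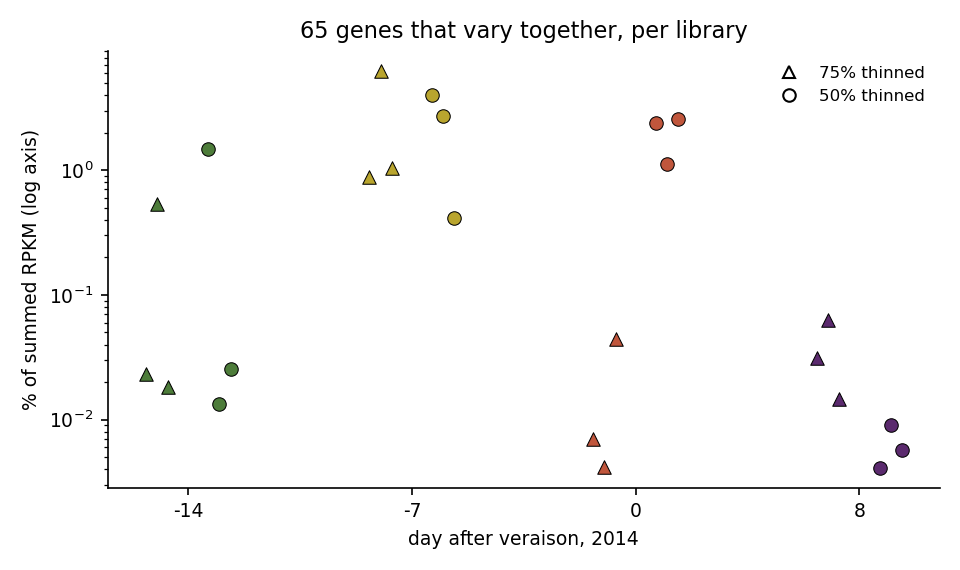
Share of the summed RPKM, in % on a log axis, of the 65 genes that vary together, in each library of days -14, -7, 0 and 8 of 2014; triangles are the 75% arm and circles the 50% arm. On day 0 the 3 libraries of the 75% arm lie at 0.0443% or below and the 3 of the 50% arm at 1.11% or above. The genes were chosen on the libraries of days -14 to 0.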

How the data were processed

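RNA-seq libraries of grape berry pericarp were used, 12 of them for the main comparison. The deposited tables hold RPKM values, which the authors made with TopHat2 2.0.6 and Cufflinks 2.0.2, per the submitters' processing notes; genome build, annotation and the handling of shared reads: not given in the sources used here. Libraries were not strand-specific, per the labels' protocols, so overlapping antisense genes cannot be told apart. Counts were not used, the depth per library is unknown, and no counting intervals were computed. An exact 0 can be a failed estimate: 4 fallen genes and 0 risen genes were at 0 in a library while both other replicates had at least 5 RPKM.

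Season, day, thinning and replicate came from titles, source names and labels. A separate year tag says 2012 for 10 of the 12 libraries and 2013 for 2, while the titles say 2014. Titles were followed. The 2 with tag 2013 are replicates 2 and 3 of the 75% arm on day 0. The tag thus goes partly with the arm on that day, and its part in the arm differences was not tested.

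The filter kept 20770 of 29971 genes, those that reached 1 RPKM in 3 or more libraries of the series. Their log2(RPKM + 1) values were fitted by limma 3.58.1 (R 4.3.3) with a mean per day and arm, arms weighted equally, an intensity trend, Benjamini-Hochberg adjustment over all genes tested, adjusted p below 0.05 and at least 2-fold. Fold changes on this scale understate those of low genes. Only the libraries of the days compared entered each fit, since pools at veraison may vary more than others. Exact permutation tests went through all arrangements, with numpy 2.4.6 in Python 3.11.15. Score genes and onset lists come from green berries (days up to -9 of 2012 and up to -13 of 2013) and days 11 to 21 of 2012 and 8 to 22 of 2013. The late ripening list of 2012 sets days 74 and 80 against days 11 and 21. Interval lists come from the days they name. By the naming rule, printed genes are the 2 largest rises and 2 largest falls per comparison with groups that do not overlap, a mean of 5 RPKM or more on the higher side and no implausible 0. None of the IDs matched a reference table, so gene names, annotation lists and sequences were not used. Members and lists were chosen with earlier results of these data known. On simulated data with the spread of the day 0 and day -14 libraries (20770 genes), the fit called 26 of 50 genes changed 2-fold, 50 of 50 changed 3-fold and 48 of 50 changed 4-fold, with 1 false call. The changed genes were drawn from those with a day -14 mean above 3 on the log2 scale, and all changes were rises. Values were independent and normal, with the same spread on both days. Lower genes, falls and genes that vary together between pools were thus not covered.

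Alternatives were other pseudocounts, filters, scalings, a pooled spread, no trend, a replicate block, single arms and each library left out. Leaving out the pair of day -7 libraries or the 65 genes that vary together, and the way to day 8 on the log2 scale, were added after seeing the data.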

Additional observations from a re-analysis of the deposited data

Results flagged for a closer look

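In groups of 6 libraries a value far from the other 5 was looked for in 72 sets of values, of which 4 held such a value; chance gives about 1 in 20. Replicate 1 of the 50% arm on day -14 had 1.49% of its summed RPKM in the 65 genes that vary together, against 0.0134 to 0.535% in the other libraries of that day. Replicate 2 of the 50% arm on day 0, the pool with the least sugar, had 35.28 RPKM of VIT_02s0154g00320, against 6.54 to 12.5 RPKM in the other 5, and 1.441 RPKM of VIT_08s0007g03240, against 0.488 to 0.828 RPKM. Replicate 3 of the 75% arm on day -7 had 32.49 RPKM of VIT_06s0004g00070, against 2.36 to 5.01 RPKM.

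The change to day 0 differed between the 75% and the 50% arm in 8 genes by a test of the difference. It differed between 2014 and 2012 in 1449 genes by the same kind of test, over intervals of different length and starting stage.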

How the results depend on the processing

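No tested difference changed direction under the alternatives run, nor did the change of any named gene that was put through them. VIT_06s0004g00070, VIT_05s0049g00520, VIT_19s0014g03090, VIT_11s0016g00660 and VIT_19s0177g00090 were not put through them. The lead of the ripening-down over the ripening-up genes on the way to day 8, on day 0, was 33.4 percentage points on the RPKM scale and -27.4 points on the log2 scale, a comparison added after seeing the data. From day -14 to day 0, risen genes numbered 427 with a pseudocount of 5, and fallen genes 2446 and 830 with pseudocounts of 0.1 and 5 and 1064 in the 50% arm alone; leaving out a library gave 606 to 767 risen and 1434 to 1735 fallen genes. Median ratio scaling gave 791 and 1325 and quantile normalization 797 and 1274, and moved the median log2 change of all genes from -0.08 to 0 and 0.03. From day -14 to day -7, risen genes numbered 227 and 50 with pseudocounts of 0.1 and 5, 328 with the spread pooled over all libraries and 0 in either arm alone, where 4407 (75% arm) and 3034 (50% arm) genes had an unadjusted p below 0.05; fallen genes numbered 151 and 13 with these pseudocounts, 1 in the 75% arm and 0 in the 50% arm. Leaving out a library gave 55 to 226 risen and 35 to 86 fallen genes. From day -7 to day 0, risen genes numbered 232 with a pseudocount of 5 and 134 in the 75% arm alone, and fallen genes 1739 and 418 with pseudocounts of 0.1 and 5 and 625 in the 50% arm alone; leaving out a library gave 286 to 422 and 842 to 1084. The genes that differed between arms numbered 3 with a pseudocount of 5, 5 and 2 under median ratio and quantile scaling, 443 with the pooled spread and 1 to 59 with a library left out. The genes that differed between 2014 and 2012 numbered 2215 and 697 with pseudocounts of 0.1 and 5 and 1278 to 1675 with a library left out; scaling moved the median difference of all genes from 0.14 to 0.00098 (median ratio) and 0.01 (quantile). With 50 genes in each direction the score difference was 7.32 between day 0 and day -14, and between arms 3.20 on day -7 and 1.69 on day 0; pseudocounts of 0.1 and 5 gave 5.85 and 3.73 between day 0 and day -14. The score difference between day 0 and day -14 was 4.42 to 5.13, that between arms 1.31 to 2.76 on day -7 and 0.67 to 1.83 on day 0, and the sugar difference 2.21 to 2.90 g per 100 ml with a library left out. The causes were not tested. Replicates of the same number did not deviate together throughout (correlations of day 0 and day -14 deviations of 0.126, -0.05 and -0.09 in the 75% arm and 0.13, 0.21 and 0.0942 in the 50% arm), so the numbers are not taken as pairs, and 4 of the 6 libraries matched their own number best. With a replicate block 659 genes rose and 1596 fell to day 0, 217 rose and 59 fell to day -7, 355 rose and 955 fell from day -7 to day 0, 2 differed between arms and 1437 between seasons. Depth is unknown, and 3 pools per arm and day limit what the arm comparison can show.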
